A study of Drosophila melanogaster with 16 samples.

Results

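The genes of 9 insulator and architectural proteins of Drosophila melanogaster, BEAF-32, CTCF, su(Hw), Cp190, mod(mdg4), Chro, pita, ZIPIC and dwg, were followed in early embryos with and without a knockdown of clamp. They were chosen by symbol and matched to FlyBase gene identifiers. All 9 had a row among the 15682 genes of each deposited table and all were tested at each time. RNA of whole embryos of mixed sex was sequenced in 16 libraries, 4 in each of 4 groups. The groups cross a genotype, MTD control or clamp RNAi, with a collection, 0 to 2 hr or 2 to 4 hr after egg laying. The genotype is that of the mothers, virgin females aged 3 to 5 days that were mated to yw males. The labels give control mothers the drivers P{COG-Gal4:VP16} on the first and P{Gal4-nos.NGT}40 and P{nos-Gal4-VP16} on the other chromosomes, which act in the female germline. The mothers of the knockdown embryos carried each driver in 1 copy, over a y[1] sc[*] v[1] chromosome, over a wild-type one, and over the hairpin transgene P{TRiP.GLC01858}attP2. The labels list no hairpin against another target in the controls.

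Insulators are DNA elements that separate regulatory domains of the genome and, when placed between an enhancer and a promoter, can block their communication. In flies they are bound by zinc finger or BED finger proteins that read a DNA sequence, here BEAF-32, CTCF, su(Hw), pita, ZIPIC and dwg (also known as Zw5). These recruit cofactors that bridge sites to each other, here Cp190, mod(mdg4) and Chro. The clamp protein binds GA-rich DNA and is found at many promoters and domain borders of the early embryo, so the comparison asks whether embryos with less clamp hold other amounts of RNA for this machinery.

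The deposited values are mean normalized read counts of a condition A and a condition B at each time, with their ratio and the authors' test. No header or label says which genotype each letter stands for. For Clamp itself the authors' deposited tables give 2789 in A against 42.3 in B at 0-2 hr, and 3225 against 83.0 at 2-4 hr. B is therefore called the condition with less Clamp, and the letters are not used as genotype labels. A gene is called when the deposited DESeq adjusted p is under 0.05. The tables give neither library depths nor the spread among the 4 libraries of a condition, so no SD can be printed. Nothing in the labels says that libraries came from separate crosses, so the p-values cover the spread between these libraries, which may be technical. In bulk RNA, fewer cells of a type and less RNA per cell cannot be told apart.

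Markers of late embryos were lower in B at both times. All 7 muscle genes with a row, of 8 listed, had a negative log2, and their condition means in the authors' deposited table summed to 1929 in A and 207 in B at 0-2 hr, and to 2585 in A and 134 in B at 2-4 hr. All 6 epidermis and cuticle genes were also lower in B, with sums of 506 and 19.1 at 0-2 hr in the authors' deposited table, and of 814 and 38.8 at 2-4 hr. The 5 neuron genes with a row, of 6 listed, summed to 319 in A and 64.2 in B at 0-2 hr there, and to 1160 and 514 at 2-4 hr. Hemocyte markers (4 genes) went both ways and summed to 371 and 181 at 0-2 hr, and to 1098 and 758 at 2-4 hr, in the authors' deposited table. Most of these hemocyte sums came from srp, with 348 in A and 169 in B at 0-2 hr and 1066 and 734 at 2-4 hr there. Most of the neuron sums at 2-4 hr came from elav, with 995 in A and 477 in B in the authors' deposited table. None of these markers was at 0 in the mean over both conditions. Of these late and hemocyte genes, DESeq called 0 at 0-2 hr and 2 at 2-4 hr, elav and srp, both lower, and Hml alone had an unadjusted p under 0.05 at 0-2 hr. The part of late-embryo RNA in the results below was not tested. The lowest of 6 maternal genes was at the 93.1st percentile of the tested genes at 0-2 hr, and 5 of 6 early zygotic genes were detected, with sala at 0. These stage markers also moved, in both directions. At 2-4 hr the early zygotic genes sisA (222 in A and 697 in B, log2 1.65) and nullo (log2 0.51) were called higher in the authors' deposited table. Of the maternal genes, nanos was called higher at 0-2 hr (log2 0.41) and pgc at 2-4 hr (log2 0.76), while osk (log2 -0.61) and smg (log2 -0.42) were called lower at 2-4 hr, in the authors' deposited table. The early zygotic means summed to 2605 in A and 2776 in B at 0-2 hr and to 17261 and 14437 at 2-4 hr, and the maternal means to 73263 and 68788, then 52087 and 41160, in the authors' deposited table. Their part in the results below was not tested either.

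Insulator gene RNA was abundant at both times. The members' means ran from 515 (dwg) to 12070 (mod(mdg4)) normalized reads at 0-2 hr in the authors' deposited table, and from 309 to 12800 for the same genes at 2-4 hr. Of the 9, only mod(mdg4) was called at both times, and it was lower in B each time. BEAF-32 was called lower at 0-2 hr only, and the difference between the times was not tested. The other 7 genes were called at neither time. At 0-2 hr 2 of 9 members were thus called lower and 0 higher, with DESeq and 2 members at an unadjusted p under 0.05. Over all 13096 tested genes 11.2% were called, 5.61% lower and 5.56% higher. Among the 4470 genes with at least the mean of dwg, 22.2% were called in either direction. At 2-4 hr 1 of 9 was called lower and 0 higher, with 2 members at an unadjusted p under 0.05. The shares over all 14245 tested genes were then 15.5%, of which 8.14% lower and 7.38% higher. Among the 4640 genes with at least the mean of dwg 32.3% were called in either direction. The members' 2 of 9 and 1 of 9 do not stand above these shares of like-abundant genes.

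**Figure D1:**
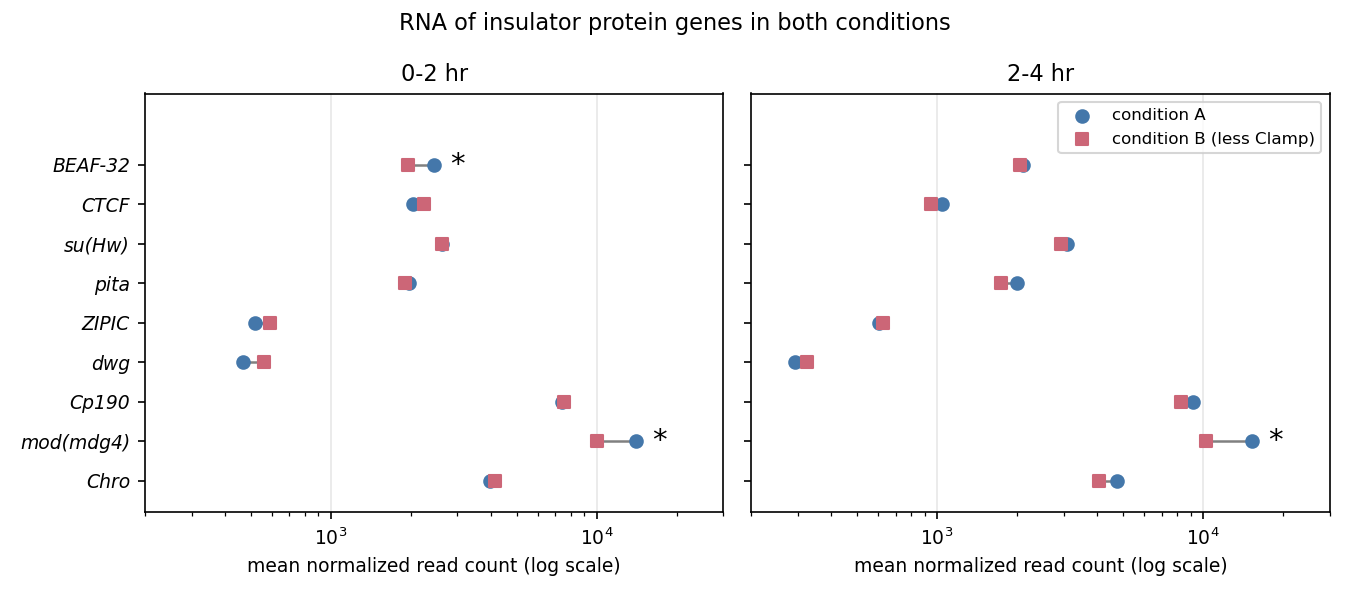
Mean normalized read count of each member (x axis, log scale) in condition A (circles) and condition B (squares), 0-2 hr left and 2-4 hr right, as the authors deposited them, each a mean over 4 libraries with no spread given. Asterisks mark genes called at an adjusted p under 0.05, which are BEAF-32 and mod(mdg4) at 0-2 hr and mod(mdg4) at 2-4 hr.

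The gene mod(mdg4) encodes a family of BTB domain proteins made by trans-splicing of shared first exons to many alternative last exons, and one of its isoforms is a partner of su(Hw) in the gypsy insulator. In the authors' deposited table mod(mdg4) RNA had a mean of 14118 in A and 10023 in B at 0-2 hr, which is 1.41-fold lower in B (log2 -0.49, DESeq adjusted p 8.50e-08). It was lower again at 2-4 hr, where the authors' deposited table holds 15298 for A and 10302 for B, which is 1.48-fold lower (log2 -0.57, DESeq adjusted p 1.39e-08). The level in B was 71.0% and 67.3% of that in A. Of the 4470 genes at least as abundant as dwg at 0-2 hr, 2.80% had a lower log2 than mod(mdg4), and at 2-4 hr 8.45% of 4640 did.

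The annotation gives mod(mdg4) 22 transcripts on its own strand, over 12.4 kb of exon. It also lists 23 precursor genes of the trans-spliced last exons, named pre-mod(mdg4), of which 9 had a row in the tables. All 9 overlap mod(mdg4) on the other strand. Of these rows 6 in the authors' deposited table were listed at 0 at 0-2 hr and 5 at 2-4 hr. The most abundant, pre-mod(mdg4)-V, had a mean of 1401 in A and 896 in B at 0-2 hr (log2 -0.65, DESeq adjusted p 6.60e-08) in the authors' deposited table. It was called lower, as mod(mdg4) was. The same row had 1280 in A and 1169 in B at 2-4 hr in the authors' deposited table and was not called (log2 -0.13, DESeq adjusted p 0.929). The next, pre-mod(mdg4)-U, was not called, with 121 in A and 73.4 in B at 0-2 hr (log2 -0.72, DESeq adjusted p 0.106) and 104 and 107 at 2-4 hr (log2 0.05) in the authors' deposited table. The sources used here do not say whether reads were counted by strand, so reads of mod(mdg4) and of its precursor genes on the other strand may have been mixed or set aside as ambiguous. The values of mod(mdg4) as a gene and of its precursor genes, with their log2, are uncertain to that extent. No values of single isoforms were available.

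Cp190 binds the other insulator proteins through its BTB domain and is the cofactor most of them share. Its RNA had a mean of 7433 in A and 7560 in B at 0-2 hr in the authors' deposited table (log2 0.02, DESeq adjusted p 1). The later collection had 9201 in A and 8305 in B in the authors' deposited table (log2 -0.15, DESeq adjusted p 0.349). Cp190 was called at neither time. Chro, the chromodomain protein Chromator of interbands and domain borders, had 3978 in A and 4146 in B at 0-2 hr (log2 0.06, DESeq adjusted p 0.886) in the authors' deposited table. Chro at 2-4 hr stood at 4775 in A and 4062 in B in the authors' deposited table (log2 -0.23), with an unadjusted p of 0.0143 and a DESeq adjusted p of 0.0814. Chro is the member nearest to the threshold among those not called, and it passed at an adjusted p under 0.1.

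BEAF-32, a BED finger protein of housekeeping gene borders, had a mean of 2448 in A and 1962 in B at 0-2 hr in the authors' deposited table, which is 1.25-fold lower in B (log2 -0.32, DESeq adjusted p 0.00502). At 2-4 hr its means were 2115 in A and 2060 in B in the authors' deposited table (log2 -0.04, DESeq adjusted p 1). The collections were normalized separately, so whether BEAF-32 in A or in B differed between them was not tested. An antisense RNA that overlaps BEAF-32, asRNA:CR42254, was not called, with 106 in A and 109 in B at 0-2 hr and 73.6 and 113 at 2-4 hr (log2 0.62, DESeq adjusted p 0.101) in the authors' deposited table.

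CTCF is the fly counterpart of the vertebrate insulator protein of that name and binds borders of the bithorax complex. It had 2047 in A and 2252 in B at 0-2 hr (log2 0.14, DESeq adjusted p 0.423) in the authors' deposited table, and 1049 and 946 at 2-4 hr (log2 -0.15, DESeq adjusted p 0.565). The protein of su(Hw) binds the gypsy retrotransposon insulator through an array of zinc fingers. Its RNA had 2613 in A and 2615 in B at 0-2 hr (log2 0.00, DESeq adjusted p 1) in the authors' deposited table, and 3076 and 2933 at 2-4 hr (log2 -0.07, DESeq adjusted p 0.866). Neither gene was called, and at 0-2 hr the condition means of su(Hw) differed by less than 0.1%.

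The genes pita, ZIPIC and dwg encode zinc finger proteins with a ZAD domain, of which pita and ZIPIC are known to recruit Cp190. In the authors' deposited table pita had 1979 in A and 1901 in B at 0-2 hr (log2 -0.06, DESeq adjusted p 0.938), and 1995 and 1747 at 2-4 hr (log2 -0.19, DESeq adjusted p 0.320). ZIPIC had 521 in A and 592 in B at 0-2 hr (log2 0.18, DESeq adjusted p 0.549) in the authors' deposited table, and 605 and 627 at 2-4 hr (log2 0.05, DESeq adjusted p 1). The least abundant member, dwg, had 469 in A and 562 in B at 0-2 hr (log2 0.26, DESeq adjusted p 0.295) in the authors' deposited table, and 294 and 324 at 2-4 hr (log2 0.14, DESeq adjusted p 0.774). ZIPIC and dwg were the 2 members with a positive log2 at both times, and neither passed the test at either time.

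The tables give no interval for a log2, so the sizes that were called among genes of like abundance are given as a description. Among genes with a mean within 1.5-fold of that of CTCF, the smallest size of log2 called at 0-2 hr was 0.23, and it was 0.29 at 2-4 hr. For Cp190 it was 0.19 and 0.24, for su(Hw) 0.23 and 0.26, and for Chro 0.21 and 0.25. For pita it was 0.23 and 0.27. For the less abundant members it was larger, 0.33 and 0.32 for ZIPIC and 0.34 and 0.39 for dwg. For BEAF-32 at 2-4 hr it was 0.27. The log2 of each uncalled member was smaller in size than this value for its gene and time, with Chro at 2-4 hr the nearest. These sizes come from called genes alone and are no detection limit for a member. A missed threshold does not show that a gene held the same RNA in A and B.

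**Figure D2:**
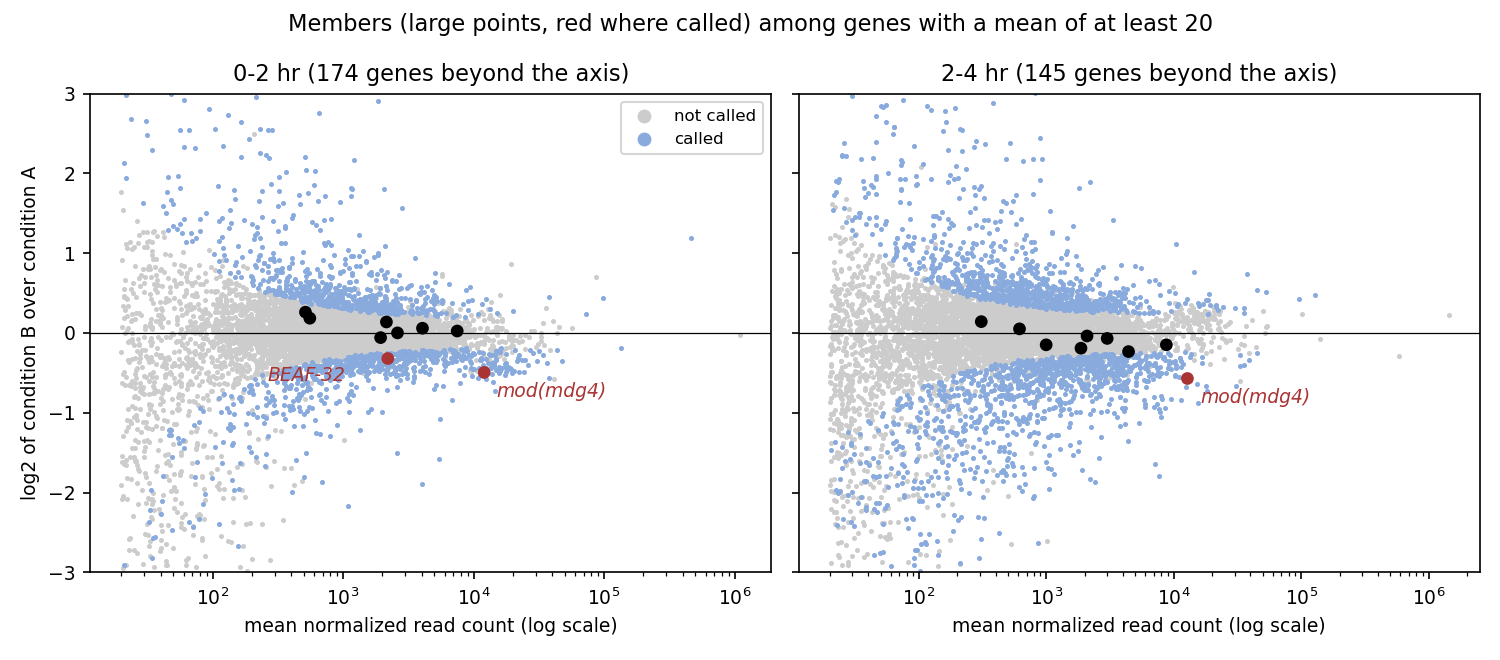
Each point is a gene with a mean of at least 20, with its mean normalized read count (x axis, log scale) and its log2 of B over A (y axis), at 0-2 hr left and 2-4 hr right. Small points are all genes, blue where called, and large points are the 9 members, red where called. Called members are named. Of the genes with at least the mean of dwg, 2.80% had a lower log2 than mod(mdg4) at 0-2 hr and 8.45% at 2-4 hr.

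As a group the members had a median log2 of 0.02 at 0-2 hr, with 3 negative and 6 positive values, and the range was -0.49 to 0.26. At 2-4 hr the median was -0.15, with 7 negative and 2 positive values from -0.57 to 0.14. BEAF-32 is among the negative values at 2-4 hr and turns to 0.02 when the condition means are scaled to equal sums without the 100 genes of highest mean. Genes with at least the mean of dwg had medians of 0.01 at both times. Their central 90% ran from -0.43 to 0.43 at 0-2 hr and from -0.76 to 0.55 at 2-4 hr. At 0-2 hr mod(mdg4) lay outside that range and the other 8 members inside, and at 2-4 hr all 9 lay inside.

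The counts of members were also taken under other call rules. At an adjusted p under 0.01 the authors' deposited table called 2 members at 0-2 hr, beside 7.41% of tested genes, and 1 member at 2-4 hr, beside 10.9%. At an adjusted p under 0.1 the count was 2 members at 0-2 hr, beside 13.9%, and 2 at 2-4 hr, beside 18.7%, the added gene being Chro. With the p-values adjusted over genes with a mean of at least 20 alone, 2 members were called at 0-2 hr, beside 23.8% of these genes, and 2 at 2-4 hr, beside 33.3%. Adjusted over both collections together, 2 members were called at 0-2 hr, beside 11.6%, and 1 at 2-4 hr, beside 15.0%. No member reached a 1.5-fold difference. With DESeq calls of at least that size, 0 members were called at each time, beside 4.19% of tested genes at 0-2 hr and 8.49% at 2-4 hr.

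Levels were compared between genes per kb of exon, within a table. The place of mod(mdg4) depends on the length used, since its 22 transcripts use alternative last exons. Over its merged exons of 12.4 kb it had 1136 normalized reads per kb in A at 0-2 hr, 0.66 times the level of Cp190, and over its median transcript of 1.86 kb it had 7574, 4.22 times that of Cp190. In B at 0-2 hr these ratios were 0.46 and 2.95, and at 2-4 hr 0.57 and 3.70 in A and 0.43 and 2.76 in B. The ratio was lower in B than in A at both times. A gene has the same length in A and B, so this holds on any length and is no separate check. Of the other 8 members, over merged exons in condition A at 0-2 hr, Cp190 had the highest level, 1731 normalized reads per kb, followed by BEAF-32 with 1276 and Chro with 933. Over the median transcript BEAF-32, with 2054, came before Cp190, with 1793. Over merged exons su(Hw) with 710 and CTCF with 708 did not differ by more than 1%, and pita had 663. Over the median transcript the order was another, with 792 for pita, 745 for su(Hw) and 708 for CTCF. ZIPIC with 319 and dwg with 234 normalized reads per kb were lowest. In condition B at 0-2 hr Cp190 had 1761 normalized reads per kb of merged exon, BEAF-32 1022 and Chro 972. The level of Cp190 per kb of merged exon was 2.44 times that of su(Hw) in A and 2.48 times in B at 0-2 hr, and 2.57 and 2.43 times at 2-4 hr. Of the genes whose proteins meet in the gypsy insulator, the ratio of mod(mdg4) to Cp190 thus differed more between A and B than that of Cp190 to su(Hw), a comparison of condition means with no test.

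**Figure D3:**
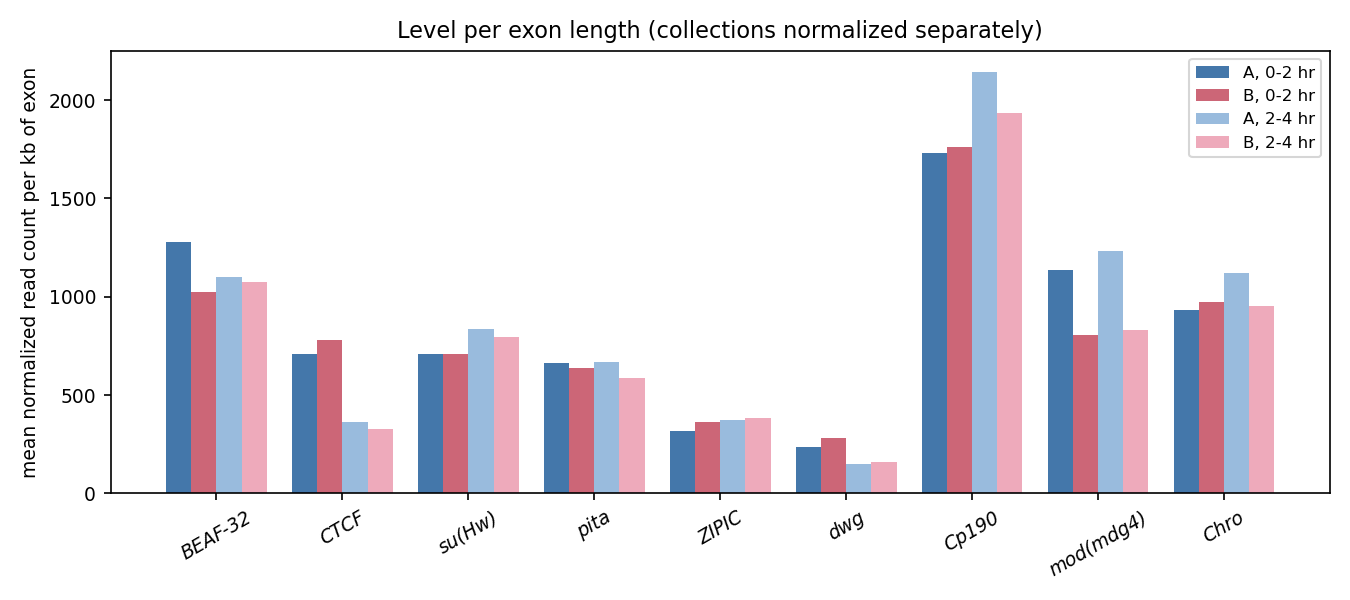
Bars from 0 give the mean normalized read count per kb of exon of each member in conditions A and B at 0-2 hr (dark) and at 2-4 hr (light), with no spread given. The bars of mod(mdg4) use its merged exons of 12.4 kb, which span 22 transcripts, and turn from below to above those of Cp190 on its median transcript length. CTCF and dwg have lower bars at 2-4 hr than at 0-2 hr, where the collections were normalized separately.

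The 2 collections were normalized separately, so levels across them are set side by side with no test. CTCF in condition A stood at 2047 at 0-2 hr and 1049 at 2-4 hr in the authors' deposited tables. Its value at 2-4 hr was 51.2% of that at 0-2 hr in A and 42.0% in B. For dwg the value at 2-4 hr was 62.6% of that at 0-2 hr in A and 57.7% in B. The mean of CTCF over both conditions went from the 87.9th to the 82.1st percentile of the genes tested in each collection. For dwg the percentile went from the 65.9th to the 67.4th, over 13096 tested genes at 0-2 hr and 14245 at 2-4 hr. By count from the top its place was lower at 2-4 hr. The genes with at least its mean numbered 4470 at 0-2 hr and 4640 at 2-4 hr. For the other 7 members the value at 2-4 hr was between 86.4% (BEAF-32) and 124% (Cp190) of that at 0-2 hr in A, and between 91.9% (pita) and 112% (su(Hw)) in B.

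The genes of proteins that work with insulators were taken as 4 lists, accessory DNA-binding proteins, cofactors, cohesin and condensin, with 34 of 36 listed genes having a row. In the authors' deposited table DESeq called 9 of the 34 at 0-2 hr, 6 lower and 3 higher. The share of all tested genes was 11.2%, with 5.61% lower and 5.56% higher. At 2-4 hr 14 were called, 12 lower and 2 higher, against 15.5%, with 8.14% lower and 7.38% higher. The counts of the single lists below stand beside these same shares. Among the genes with at least the mean of dwg, which some of the 34 did not reach, 22.2% were called at 0-2 hr and 32.3% at 2-4 hr. With the p-values adjusted over genes with a mean of at least 20, which all 34 had, 11 were called at 0-2 hr and 16 at 2-4 hr, against 23.8% and 33.3% of these genes. The median log2 of the 34 was 0.02 at 0-2 hr and -0.23 at 2-4 hr.

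Of 11 accessory DNA-binding proteins, 4 were called lower and 0 higher at 0-2 hr, with 6 at an unadjusted p under 0.05, and the list had a median log2 of -0.23. Ibf1 and Ibf2 encode partner BED finger proteins that bind Cp190. In the authors' deposited table Ibf1 had 726 in A and 418 in B at 0-2 hr (1.74-fold lower, log2 -0.80, DESeq adjusted p 2.18e-07), and Ibf2 had 477 and 295 (1.62-fold lower, log2 -0.69, DESeq adjusted p 0.00865). At 2-4 hr neither was called, at log2 -0.31 for Ibf1 and 0.18 for Ibf2 in the authors' deposited table. The BTB protein gene lolal, a partner of GAGA factor, had 6888 in A and 5155 in B at 0-2 hr (log2 -0.42, DESeq adjusted p 6.06e-07), and 7203 and 7115 at 2-4 hr, in the authors' deposited table. The transcriptional repressor gene ttk was lower at both times in the authors' deposited table, at log2 -0.23 and then -0.51. At 2-4 hr 2 of 11 were lower and 0 higher, with 3 at an unadjusted p under 0.05. Elba2, of a boundary complex of the early embryo, was the other one (5931 in A and 4985 in B, log2 -0.25) in the authors' deposited table.

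Of 9 cofactor genes with a row, 1 was called lower and 1 higher at 0-2 hr, and 3 lower and 1 higher at 2-4 hr. The median log2 was 0.11 and -0.19. The BET bromodomain gene fs(1)h had 9589 in A and 5155 in B at 2-4 hr (1.86-fold lower, log2 -0.90, DESeq adjusted p 7.35e-20) in the authors' deposited table, and was not called at 0-2 hr (log2 -0.21). The tumour suppressor gene l(3)mbt had 2805 in A and 1884 in B at 2-4 hr (log2 -0.57, DESeq adjusted p 4.39e-07), and Nup98-96, of the nuclear pore, had 5783 and 4711 (log2 -0.30), in the authors' deposited table. The small SAGA subunit gene e(y)2, whose protein also binds su(Hw), was higher at 2-4 hr, with 223 in A and 313 in B (log2 0.49, DESeq adjusted p 0.0241) in the authors' deposited table. The helicase gene Rm62 was lower at 0-2 hr (log2 -0.21) and the histone kinase gene JIL-1 higher (log2 0.27) in the authors' deposited table.

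Cohesin, the ring complex that holds chromatin loops and sister chromatids, had 2 of 7 genes called higher and 0 lower at 0-2 hr, with a median log2 of 0.18. At 2-4 hr 4 were called lower and 1 higher, and the median was -0.53. The core subunit gene SMC1 had 1806 in A and 2061 in B at 0-2 hr (log2 0.19, DESeq adjusted p 0.190) and 408 and 199 at 2-4 hr (2.05-fold lower, log2 -1.04, DESeq adjusted p 6.03e-06) in the authors' deposited table. SA1, which encodes the stromalin subunit, was called at both times with opposite signs. It had 983 in A and 1222 in B at 0-2 hr (log2 0.31, DESeq adjusted p 0.0303) and 206 and 105 at 2-4 hr (log2 -0.97, DESeq adjusted p 6.09e-05) in the authors' deposited table. SMC3 and wapl, the latter a cohesin release factor, were lower at 2-4 hr in the authors' deposited table, at log2 -0.59 and -0.53. The loader gene Nipped-B was higher at both times, with 7794 in A and 10251 in B at 0-2 hr (log2 0.40) and 7574 and 10936 at 2-4 hr (log2 0.53), in the authors' deposited table. No test of the difference between the times was possible on the condition means.

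Condensin, which compacts mitotic chromosomes, had 1 of 7 genes called lower at 0-2 hr and 3 at 2-4 hr, and none higher, with 2 and 5 at an unadjusted p under 0.05. The median log2 was 0.07 at 0-2 hr and -0.26 at 2-4 hr. Cap-H2, of condensin II and known to antagonize chromosome pairing, had 455 in A and 327 in B at 0-2 hr (log2 -0.48, DESeq adjusted p 0.0255) in the authors' deposited table. At 2-4 hr the condensin I genes Cap-D2 (1292 in A and 775 in B, log2 -0.74) and Cap-G (1835 and 1279, log2 -0.52) and the SMC4 gene glu (log2 -0.26) were lower in the authors' deposited table.

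**Figure D4:**
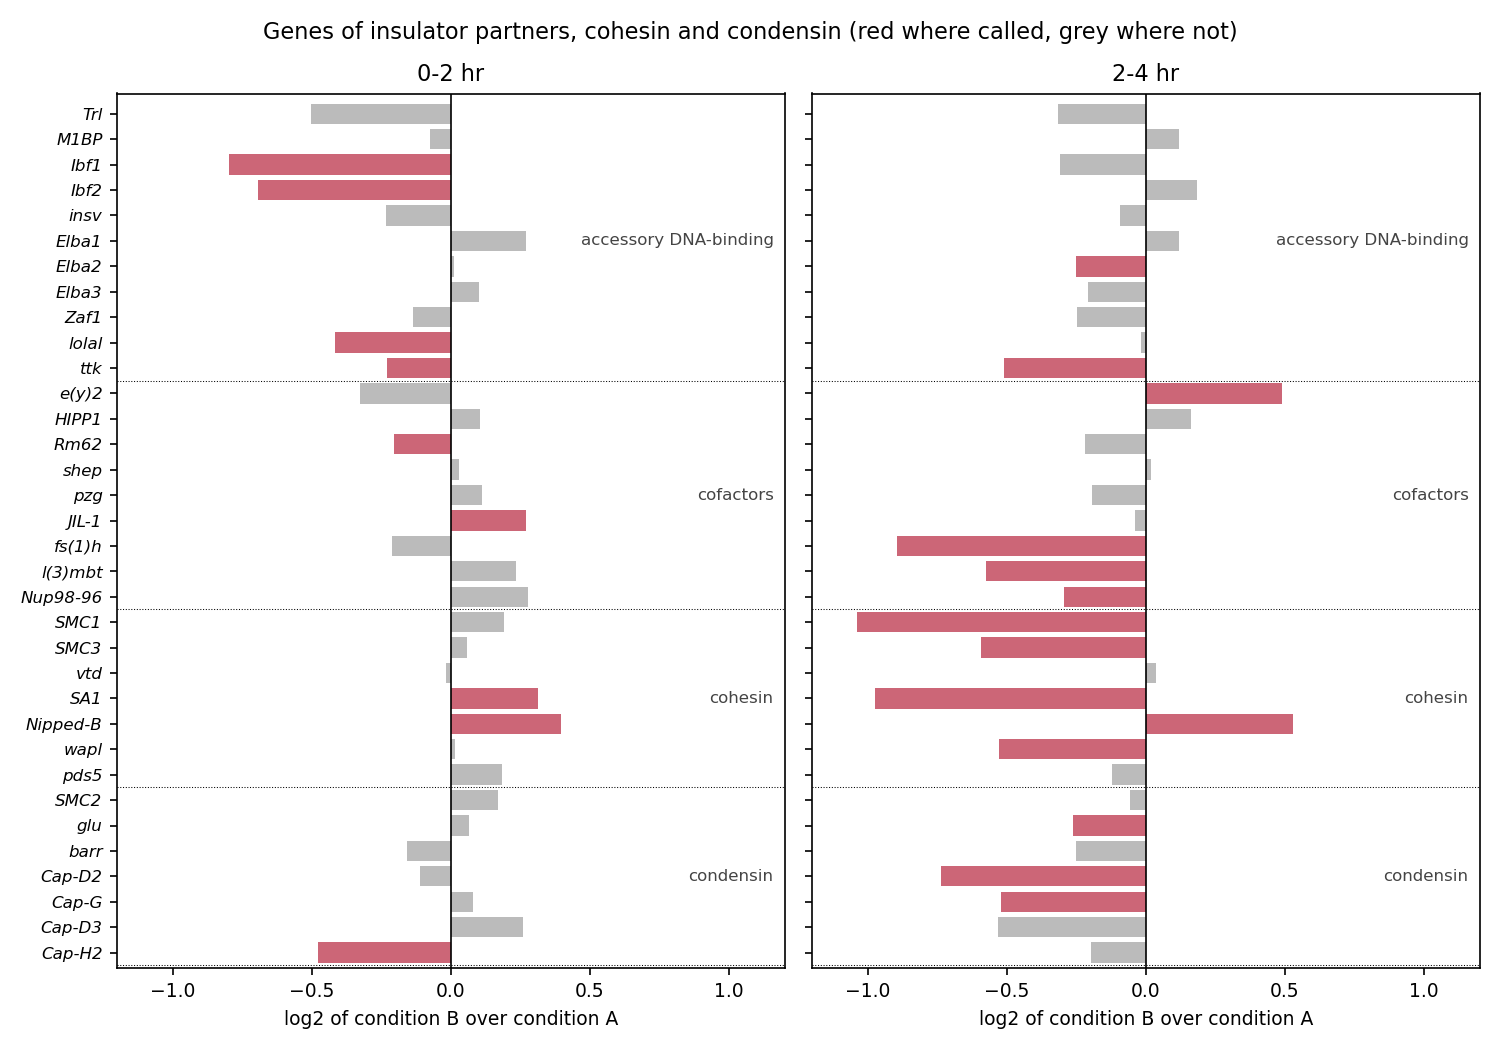
Bars give the log2 of B over A (x axis) of each partner gene in the 4 lists, at 0-2 hr left and 2-4 hr right, red where called at an adjusted p under 0.05 and grey where not. At 2-4 hr 4 of 7 cohesin genes are red to the left of 0, among them SMC1 at -1.04 and SA1 at -0.97, and Nipped-B is red to the right at both times.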

How the data were processed

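Per the labels' protocols, the RNA came from Trizol extraction and libraries from NuGEN's Ovation system, which depletes ribosomal RNA. The submitters' processing notes name DESeq, HTSeq 0.5.4p3 and TopHat2 2.0.13, and dm3 as the build, with no role. The authors deposited 1 table per collection. Per the file headers it holds mean normalized read counts (over both conditions, of A and of B), then the ratio of B over A with its log2, and p-values before and after adjustment. Recomputed, log2 of the condition means and a Benjamini-Hochberg adjustment equalled the deposited columns. The condition means were read as columns of the authors' comparison. The sums of the condition means over genes run from 13880000 to 14982600. The depth per library is unknown.

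No test of differential expression was computed here: the authors' DESeq calls at an adjusted p under 0.05 were used, as planned for tables without counts per library. The members and lists were chosen with earlier results of these data known. Named are the members, Clamp, and each partner list's genes called at either time (at most 6). Genes overlapping or flanking members, the stage and tissue markers were named after their values were seen. Symbols came from a gene name table (15002 of 15682 identifiers), with SA1 and nanos matched through synonyms. Topors and dmt are not analysed here. Exon lengths and overlaps came from the BDGP6 annotation, whose build differs from dm3, so no coordinates are printed. The planned promoter motifs and protein features are not analysed here. The adjustment and scaling steps were tested on simulated data. Python 3.11.15, numpy 2.4.6, pandas 2.3.3, scipy 1.17.1 and matplotlib 3.10.9 were used. Alternatives were thresholds of 0.01 and 0.1, a mean of at least 20, adjustment over both collections, a minimum of 1.5-fold and 3 other scalings. The median transcript length was added as an alternative after seeing the data.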

Additional observations from a re-analysis of the deposited data

How the results depend on the processing

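The count of members called at 0-2 hr stayed at 2 except at a minimum of 1.5-fold, where DESeq called 0, with 2 members at an unadjusted p under 0.05. At 2-4 hr the count of 1 became 2 at an adjusted p under 0.1 and 2 when only genes whose mean reached 20 were adjusted, and 0 at 1.5-fold, with 2 at an unadjusted p under 0.05. Of the 34 partner genes, 9 were called at 0-2 hr, against 4 at an adjusted p under 0.01 and 2 at 1.5-fold. The shares of all tested genes were 11.2%, 7.41% and 4.19%. At 2-4 hr 14 were called, against 9 at an adjusted p under 0.01 and 5 at 1.5-fold. The shares were then 15.5%, 10.9% and 8.49%. These rules are stricter or looser by construction. Each other scaling shifted every log2 of a collection by the same amount, at most 0.062. Only values that close to 0 could therefore change sign. Of 54 member log2 values under other scalings, 53 kept their sign. Every shift was positive, so positive values could not change sign, and this count follows from the signs and sizes of the values. BEAF-32 at 2-4 hr turned from -0.04 to 0.024 with equal sums without the 100 genes of highest mean, a scaling that moved every log2 by 0.06. Per kb of median transcript in place of merged exons, an alternative chosen after seeing the data, mod(mdg4) over Cp190 in A at 0-2 hr went from 0.66 to 4.22. No paired analysis was possible because the tables hold condition means and no values per library, and leaving out each replicate was not run for the same reason. The depth behind each value is unknown.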

Other observations

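Some genes next to members were called where the member was not. Beside CTCF, which was not called, 2 genes were called higher in B at both times. The overlapping gene qm, which encodes an enzyme of isoprenoid synthesis, had 929 in A and 1290 in B at 0-2 hr (log2 0.47) and 898 and 1351 at 2-4 hr (log2 0.59) in the authors' deposited table. The flanking gene pst, known for resistance to Drosophila C virus, had 67.5 in A and 398 in B at 0-2 hr (log2 2.56, DESeq adjusted p 5.29e-25) and 74.0 and 358 at 2-4 hr (log2 2.28, DESeq adjusted p 1.41e-22) in the authors' deposited table. Polr2I, of RNA polymerase II and beside su(Hw), changed sign, with log2 -0.37 at 0-2 hr and 0.35 at 2-4 hr, called each time in the authors' deposited table. The other neighbour of su(Hw), the trithorax gene trx, had 3043 in A and 1566 in B at 2-4 hr (log2 -0.96, DESeq adjusted p 1.95e-19) in the authors' deposited table. At 0-2 hr trx was not called, with 3433 in A and 3862 in B (log2 0.17, DESeq adjusted p 0.322) in the authors' deposited table. Of the 18 nearest flanking genes, 1 was called lower and 2 higher at 0-2 hr, and 3 lower and 3 higher at 2-4 hr. Of 17 overlapping genes, 11 were tested at 0-2 hr, with 1 called lower and 1 higher, and 12 at 2-4 hr, with 1 lower and 2 higher. Over all tested genes 11.2% were called at 0-2 hr and 15.5% at 2-4 hr. All of these were named after their values were seen.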
